A study of Mus musculus with 2 samples.

Results

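Chromatin loops around 9 genes for transcription factors of blood stem cells and their partners were taken from Hi-C maps of HPC5 cells. The genes are Gata2, Runx1, Tal1, Lyl1, Lmo2, Ldb1, Cbfa2t3, Myb and Gfi1b, 9 of the 21521 protein-coding genes on the mouse autosomes and X. A loop was assigned to a gene when one of its anchors overlapped the gene or lay within 25 kb of it, or when the whole gene lay between the midpoints of its anchors. Across the medium-setting loop lists this gave 4 of 1276 loops in replicate 1 and 14 of 5729 in replicate 2. HPC5 is a haematopoietic progenitor line from mouse bone marrow. Both samples carry the genotype Etv6+/+ and received no treatment apart from the Hi-C procedure, so there is 1 group with replicates 1 and 2 and no mutant. The labels do not say how the line was made or whether the replicates came from separate cultures. Expression was not measured, so the progenitor label could not be set against marker genes.

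Gata2, Runx1, Tal1, Lyl1 and Lmo2 encode 5 of the heptad, a group of transcription factors that bind together at many enhancers of blood stem and progenitor cells. GATA2 is a zinc finger protein, RUNX1 contacts DNA through its runt domain, and TAL1 and LYL1 are related basic helix-loop-helix proteins. LMO2 is an adaptor that joins TAL1 or LYL1 to GATA proteins, and LDB1 binds LMO2 and can bring distant DNA sites together by self-association. CBFA2T3, also called ETO2, is a co-repressor of these complexes. MYB supports progenitor growth, and GFI1B is a zinc finger transcriptional repressor that acts within the erythroid and megakaryocytic lineages. Several of these genes are controlled by distant enhancers that are named by their distance in kb from the gene start.

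The loops met these genes in different ways. Runx1 and Lyl1 had a RefSeq start inside an anchor. Lmo2, which has no start in the table used, had its right end there. Gata2, Tal1 and Myb lay between anchors that did not touch them. Ldb1 and Cbfa2t3 had an anchor beyond their downstream end, the loop of Cbfa2t3 also enclosed the gene, and Gfi1b had no loop. The 250 bases before and 50 bases after the starts that lay in anchors are shown. Runx1 was taken because a replicate 2 loop joined both of its starts. Lyl1 was taken because its start lay in the replicate 1 anchor of a loop found in both replicates. The replicate 2 anchor of that loop lay 8.5 kb from the start. The sequences are from RefSeq (GRCm38.p6, the assembly that mm10 names), written 5′ to 3′ along the gene. Capitals mark matches on either strand to 4 motifs. The GATA motif was searched as AGATAA. The motif of RUNX proteins was searched as TGTGGT. The E-box of helix-loop-helix proteins was searched as CAGATG. The motif of ETS proteins, the family of ETV6, was searched as CCGGAA.
Runx1 distal start, chr16:92826025-92826324, minus strand: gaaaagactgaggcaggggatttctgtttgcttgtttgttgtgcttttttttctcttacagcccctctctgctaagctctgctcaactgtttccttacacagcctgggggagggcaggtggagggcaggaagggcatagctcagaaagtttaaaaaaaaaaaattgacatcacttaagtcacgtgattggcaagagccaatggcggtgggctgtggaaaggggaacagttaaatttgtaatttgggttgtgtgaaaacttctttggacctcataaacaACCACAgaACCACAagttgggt
Runx1 proximal start, chr16:92697280-92697579, minus strand: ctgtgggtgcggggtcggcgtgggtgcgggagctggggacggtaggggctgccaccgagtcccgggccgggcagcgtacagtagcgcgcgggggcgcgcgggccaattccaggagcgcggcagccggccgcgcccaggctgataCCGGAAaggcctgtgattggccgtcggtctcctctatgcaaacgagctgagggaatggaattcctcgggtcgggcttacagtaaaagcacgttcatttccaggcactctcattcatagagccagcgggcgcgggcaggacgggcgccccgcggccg
Lyl1 start, chr8:84701207-84701506, plus strand: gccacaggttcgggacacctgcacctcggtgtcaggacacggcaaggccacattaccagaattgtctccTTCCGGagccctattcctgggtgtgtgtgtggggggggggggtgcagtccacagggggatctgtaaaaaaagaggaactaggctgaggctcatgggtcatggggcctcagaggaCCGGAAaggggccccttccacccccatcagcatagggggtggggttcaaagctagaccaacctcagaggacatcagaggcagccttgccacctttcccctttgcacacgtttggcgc

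The distal Runx1 window held 2 RUNX matches, which read ACCACA on the printed strand and lie after the start. The proximal window held 1 ETS match and the Lyl1 window 2, and no printed window held the GATA or E-box letters. Of all 32851 RefSeq promoter windows of this length, 11.2% held the GATA motif, 16.8% the RUNX motif, 17.2% the E-box and 14.9% the ETS motif. Across the 14 windows of the 8 members in the table, 2 held the GATA letters, 1 the RUNX letters, 3 the E-box letters and 3 the ETS letters. No marked matches overlap. The 2 Runx1 windows differed in base composition, with 45.0% G and C at the distal start and 69.0% at the proximal start, against a median of 52.7% over all windows. A match is a string of letters and not a measured binding site.

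Runx1 had both of its listed starts in the anchors of 1 loop. The listed starts of Gata2, Tal1, Ldb1 and Cbfa2t3 lie closer together than the shortest member loop, 50 kb, so no member loop could join them. No share of loops that join starts of 1 gene is at hand over all genes. Runx1 fills 92601466 to 92826074 on chromosome 16 and is read on the minus strand. Its distal start lies at 92826074 and its proximal start at 92697329. These starts give RUNX1 proteins with different first residues, and the distal one is used in definitive blood stem cells. A replicate 2 loop of 130 kb connected 92690001 to 92699999, which holds the proximal start, to 92820001 to 92829999, which holds the distal start. This loop was in the medium and the high list of replicate 2 and in neither list of replicate 1. In replicate 1 the distal start again lay in an anchor, 92825001 to 92849999, but the partner lay upstream of the gene at 92975001 to 92999999, 150 kb away, where no protein-coding gene lies. Another replicate 2 loop at Runx1, of 100 kb, joined 92650001 to 92674999 in the gene to 92550001 to 92574999 beyond its downstream end. The replicates thus shared the looped distal start of Runx1 and none of its loops.

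Lmo2 had more loops than any other member. It fills 103957903 to 103981878 on chromosome 2. There were 1 loop in replicate 1 and 4 in replicate 2, and all had an anchor within 25 kb of the gene. The loop found in both replicates ran upstream from the downstream end of the gene. In replicate 1 it joined 103975001 to 103999999 to 103850001 to 103874999 over 125 kb. In replicate 2 it joined 103980001 to 103984999 to 103870001 to 103874999 over 110 kb. The replicate 1 anchor at the Lmo2 end also holds an end of 4931422A03Rik, another protein-coding gene. The ends of these genes cannot be told apart at that width. The replicate 2 anchor at the Lmo2 end, 5 kb wide, overlaps no protein-coding gene but Lmo2. The upstream anchors hold no protein-coding gene, and their near edge lies 82.9 kb upstream of the gene in both replicates. The whole gene lay between the anchor midpoints of this loop in both replicates, with its downstream end inside the right anchor.

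The other 3 Lmo2 loops were listed in replicate 2 alone. The shortest, of 55 kb, joined 103960001 to 103964999, which begins 2.1 kb inside the gene from its upstream end, to 103905001 to 103909999, a stretch without a protein-coding gene that begins 47.9 kb upstream. It was also in the high list. A loop of 225 kb joined 103975001 to 103999999, with the downstream end of Lmo2 and an end of 4931422A03Rik, to 103750001 to 103774999. The latter anchor holds the start of Nat10, an RNA acetyltransferase gene, and an end of Caprin1, an RNA-binding protein gene. The longest, of 450 kb, had its anchor 18.1 kb beyond Lmo2 at 104000001 to 104024999, inside 4931422A03Rik, and reached the start of Abtb2 at 103550001 to 103574999. It enclosed Abtb2, Nat10, Caprin1 and Lmo2. Of all protein-coding genes, 414 (1.92%) had 4 or more loops within 25 kb in the replicate 2 medium list, as Lmo2 did.

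Over 8 counts per gene, the loops near it and the loops spanning it in each of the 4 lists, the gene most like Lmo2 among the other 21520 was Map3k8, with the same 8 counts. Arsg and Fkbp9 came next at a Euclidean distance of 1, tied with others, so that 8 genes lay at that distance or nearer. The counts are small whole numbers from overlapping lists, and the likeness describes these lists only.

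Lyl1 had 1 loop in each replicate, and they matched. The gene is short, 84701423 to 84704716 on chromosome 8, and lies end to end with Nfix, a nuclear factor I gene. In replicate 1 an anchor at 84700001 to 84724999 held the whole of Lyl1 and the end of Nfix, and it was joined over 100 kb to 84800001 to 84824999, with the other end of Nfix and the start of Dand5, a secreted antagonist gene. In replicate 2 the span was also 100 kb, but the anchors were narrower, 84710001 to 84719999 and 84810001 to 84819999. The first of these lies inside Nfix, 5.3 kb beyond the end of Lyl1, and holds no end of either gene. The start of Lyl1 was therefore in an anchor at the 25 kb width of replicate 1 and 8.5 kb outside the anchor at the 10 kb width of replicate 2. The Lyl1 and Nfix ends cannot be told apart at the width of replicate 1.

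Myb was spanned in both replicates by loops whose anchors flank it. It fills 21124930 to 21160984 on chromosome 10, on the minus strand, between Ahi1, a gene of primary cilia, and Hbs1l, a ribosome rescue gene. A replicate 1 loop of 200 kb connected 20975001 to 20999999, inside Ahi1, to 21175001 to 21199999, between Myb and Hbs1l. In replicate 2 the matching loop, also of 200 kb, joined 20990001 to 20999999 and 21190001 to 21199999. Replicate 2 listed 2 more. One of 110 kb joined 21070001 to 21079999, still inside Ahi1, to 21180001 to 21189999, and one of 350 kb joined 20975001 to 20999999 to 21325001 to 21349999 inside Hbs1l. Each of these 4 loops enclosed Myb and no other whole protein-coding gene. The nearest anchor edge lay 14.0 kb from the gene in replicate 1 and 19 kb in replicate 2, inside the 25 kb limit, while the replicate 2 anchor of the matched loop lay just outside it, at 29.0 kb.

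**Figure D1:**
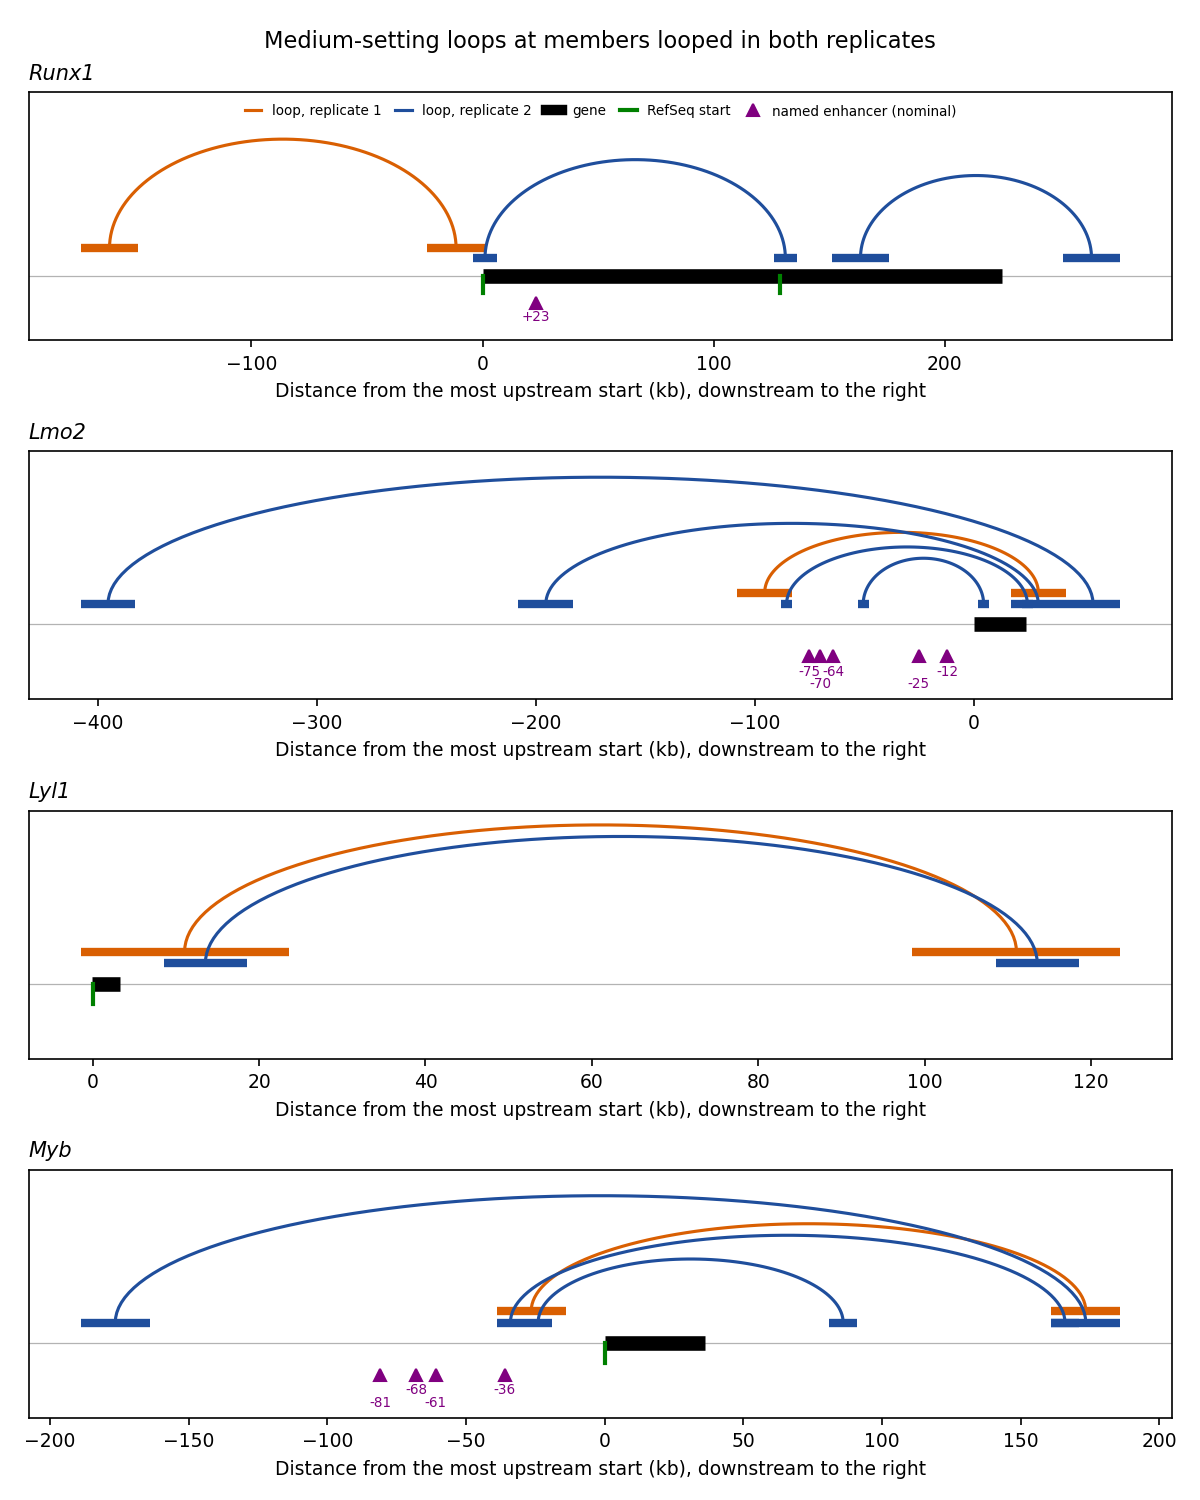
Medium-setting loops at Runx1, Lmo2, Lyl1 and Myb, with the distance in kb from the most upstream RefSeq start (for Lmo2 the left end of the gene) on the x axis, and with heights that only separate the arcs. Thick coloured bars are anchors, arcs join their midpoints (orange replicate 1, blue replicate 2), black bars are genes, green ticks RefSeq starts and purple triangles the nominal enhancer positions. The blue 130 kb arc at Runx1 joins its 2 starts, and the orange and blue arcs nearly coincide at Lyl1 and at the 200 kb loops of Myb.

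Gata2 was spanned by 1 loop, in replicate 2. The gene lies at 88193891 to 88207032 on chromosome 6. The loop, of 325 kb, joined 88100001 to 88124999, with the end of Rpn1, an oligosaccharyltransferase subunit gene, to 88425001 to 88449999, with the start of Eefsec, a gene for a selenocysteine elongation factor. It enclosed Gata2 and the chaperone gene Dnajb8. Neither anchor came near Gata2, and the closer edge lay 68.9 kb upstream. The loop was absent from the high list. In replicate 1 the nearest loop anchor to Gata2 lay 168.9 kb away.

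Tal1 was enclosed by a short loop of replicate 2, listed under both settings. The gene lies at 115056426 to 115071755 on chromosome 4. The loop of 50 kb joined 115040001 to 115049999, which holds the end of Stil, a centriole gene, to 115090001 to 115099999, which holds an end of Pdzk1ip1. Stil is the gene fused to TAL1 by a recurrent deletion in human T cell leukaemia. Between the anchor midpoints lay Tal1 and Pdzk1ip1. The anchors lay 6.4 kb upstream and 18.2 kb downstream of Tal1. No loop of replicate 1 was closer than 1753 kb.

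The remaining partners had loops in replicate 2 beyond their downstream ends. At Ldb1, 46031525 to 46048145 on chromosome 19, an anchor at 46010001 to 46019999 lay 11.5 kb beyond the gene and was joined over 200 kb to 45810001 to 45819999, with the start of Kcnip2, a potassium channel partner gene, and an end of Armh3. The loop ran away from Ldb1 and was in both replicate 2 lists. At Cbfa2t3, 122625136 to 122699332 on chromosome 8, an anchor at 122600001 to 122624999 ended 137 bases short of the gene. This anchor held an end of Galns and the starts of Trappc2l and Pabpn1l. It was joined over 225 kb to 122825001 to 122849999 at the start of Cdh15, a cadherin gene, so that Cbfa2t3, Acsf3 and Pabpn1l lay between its midpoints. This loop was in the medium list only.

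Gfi1b had no loop in any of the 4 lists. It lies at 28609450 to 28621982 on chromosome 2. The nearest anchor, 59.5 kb away, belonged to a replicate 2 loop of 35 kb at Ralgds, and the nearest in replicate 1 lay 184 kb away. Since the lists hold called loops alone, a contact below the authors' thresholds cannot be told from none.

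**Figure D2:**
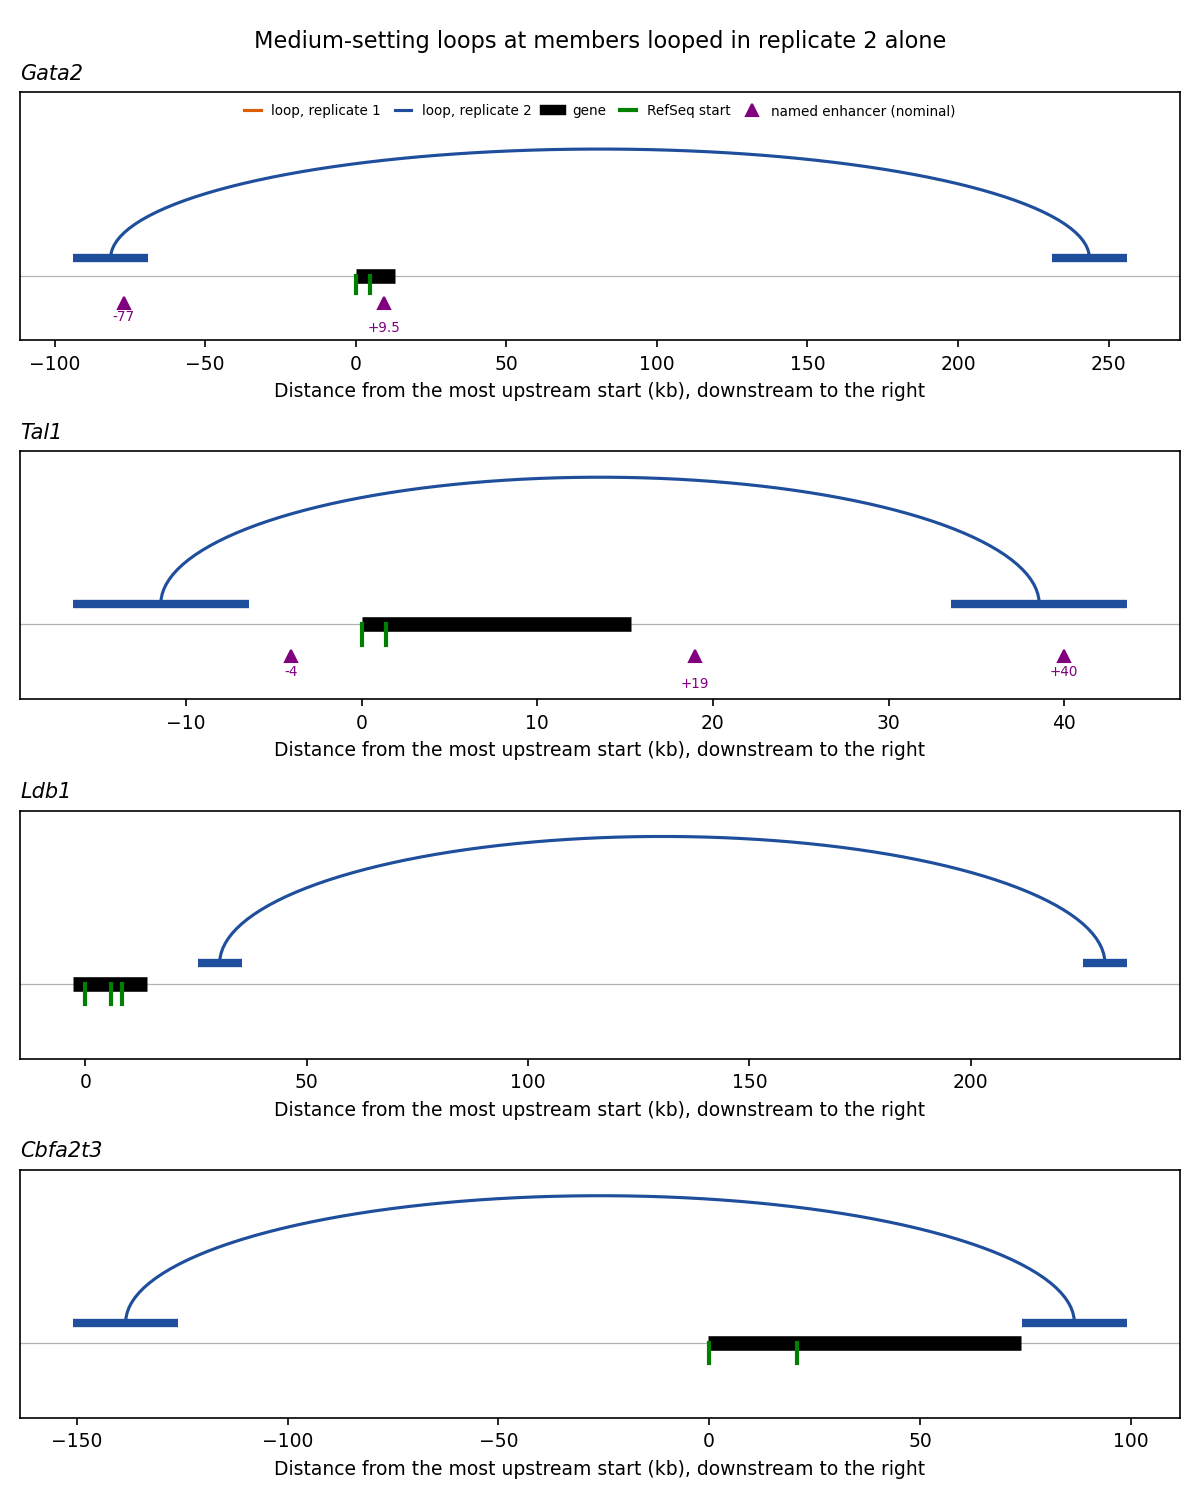
Medium-setting loops at Gata2, Tal1, Ldb1 and Cbfa2t3, drawn with distance in kb from the most upstream RefSeq start on the x axis and with bars, arcs, ticks and triangles for anchors, loops, starts and nominal enhancers. All 4 genes have a single loop, from replicate 2, and the arcs over Gata2 and Tal1 end at the triangles of the -77 and +40 enhancers.

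Enhancers named in the literature were then set against the anchors. There were 18 of them at 6 members, placed at their named distance from the most upstream RefSeq start, which gives nominal positions that may be some kb off. For 3 of the 18 the position fell inside an anchor of a loop of its own gene, against 8.79% of the positions at the same 18 distances from every gene start. Within 10 kb of an anchor there were 5 of 18, against 18.0%. Genes without a loop counted as misses in these shares, as Gfi1b did among the members. An anchor lay within 25 kb of 49.9% of all protein-coding genes and of 7 of 9 members. The comparison of enhancer positions therefore also reflects how many genes have a loop at all. Counted over all genes, the shares were larger close to the start, from 9.81% at -81 kb to 26.4% at -4 kb for the 10 kb limit.

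The 3 positions inside anchors belonged to Gata2, Tal1 and Myb. The -77 enhancer of Gata2, which drives the gene in progenitors and is moved next to another gene by a recurrent leukaemia rearrangement, fell at 88116891, in the left anchor of the 325 kb loop. The +40 enhancer of Tal1, active in erythroid cells, fell at 115096426, in the right anchor of the 50 kb loop. The -36 enhancer of Myb fell at 21196984, in the right anchors of the 200 kb loops of both replicates. In none of these loops did the other anchor hold the start of the enhancer's own gene. The -77 position was paired with the start of Eefsec, the +40 position with the end of Stil, and the -36 position with a stretch inside Ahi1. At single distances, 4.75% of all genes, those without a loop included, had an anchor of their own loop at -77 kb. The shares were 9.82% at +40 kb and 7.90% at -36 kb.

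Positions near but outside anchors followed. The -4 enhancer of Tal1 lay 2.4 kb from the left anchor of the same loop. The -75 enhancer of Lmo2 lay 7.9 kb from the upstream anchors of the shared loop, in both replicates. The -70 and -64 enhancers of Lmo2 lay 12.9 and 11.1 kb from an anchor, between the anchors that begin 82.9 and 47.9 kb upstream. For Lmo2 the start from which the names were counted is not known here, and the positions would move by up to the length of the gene, 24.0 kb, with another start. The +23 enhancer of Runx1, an intronic element of blood stem cells, lay 16.9 kb from the anchor at the distal start and between the anchors of the 130 kb loop. The -61, -68 and -81 enhancers of Myb lay 22.0, 29.0 and 42.0 kb beyond the -36 anchor, outside the 200 kb loops and inside the 350 kb loop. The +19 enhancer of Tal1, active in blood stem cells, lay 14.6 kb from the right anchor of the 50 kb loop, and the -25 and -12 enhancers of Lmo2 lay 22.9 and 14.1 kb from an anchor of the 55 kb loop. The +9.5 enhancer of Gata2, within the gene, lay 78.4 kb from an anchor. The +13, +16 and +17 enhancers of Gfi1b had no loop of their gene to be compared with.

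**Figure D3:**
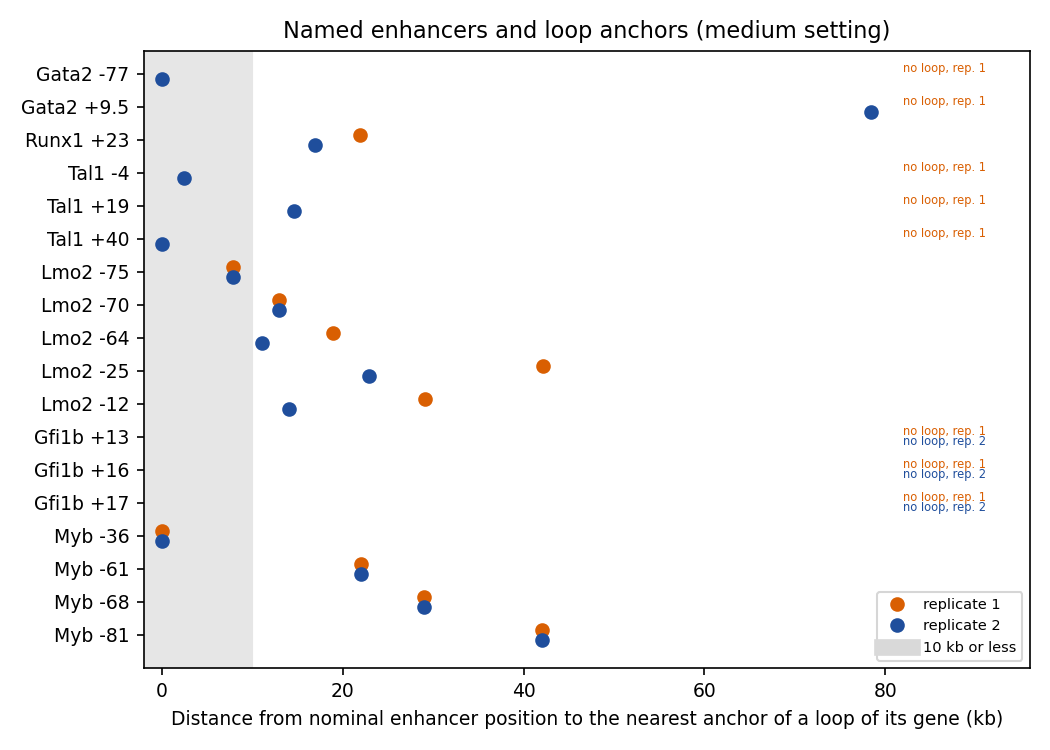
Distance in kb from each of the 18 nominal enhancer positions to the nearest anchor of a medium-setting loop of the same gene, one dot per replicate, with the region of 10 kb or less shaded. Dots at 0 mark Gata2 -77, Tal1 +40 and Myb -36, the last in both replicates, and Gfi1b has no loop in either.

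Domains were listed for Gata2 and Myb. The replicate 2 list holds 339 domains and the replicate 1 list 3, none of them at a member. Of all protein-coding genes 3.98% lay wholly inside a domain, and of the members 2 of 9 did. The domain around Gata2 ran from 88115001 to 88465000 (350 kb) and held Gata2, Dnajb8 and Eefsec. Its left edge lay in the left anchor of the 325 kb loop, near the nominal -77 position, and its right edge 15.0 kb beyond the right anchor. The domain around Myb ran from 20975001 to 21305000 (330 kb) with Myb as the only whole protein-coding gene and parts of Ahi1 and Hbs1l. Its left edge lay in the Ahi1 anchor of the 350 kb loop and its right edge 20 kb short of the Hbs1l anchor of that loop. Of the 339 replicate 2 domains, 191 (56.3%) had both edges within 25 kb of the anchors of 1 loop, as these did.

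In numbers, 7 of 9 members had an anchor within 25 kb in the medium lists of both replicates together, against 49.9% of all protein-coding genes. In replicate 1 alone there were 4 (Runx1, Lyl1, Lmo2 and Myb), against 16.5%, and in replicate 2 alone there were 7, against 48.8%. Under the high setting 0 members had one in replicate 1, where 2.8% of all genes did, and 6 had one in replicate 2, against 32.9%. An anchor overlapped the gene itself for 3 members, against 30.0%, which is close to the background. For genes without a listed start either gene end was taken in its place, and by this measure 3 members were in an anchor, against 16.9%. These were Runx1 and Lyl1 by a listed start and Lmo2 by its downstream end. The whole gene was spanned for 5 (Gata2, Tal1, Lmo2, Cbfa2t3 and Myb), against 30.6%. Loops found in both replicates had an anchor within 25 kb of Lyl1, Lmo2 and Myb, 3 of 9, against 13.7%. At Myb this held for the replicate 1 anchor alone, since the replicate 2 anchor of the matched loop lay 29.0 kb away. A start in an anchor, or either gene end where none is listed, was also counted by list. It was found for 3 members in the replicate 1 medium list (4.73% of all genes) and 2 in the replicate 2 medium list (14.7%). In the high lists of replicates 1 and 2 it was found for 0 and 2 (0.562 and 6.88%). On loops found in both replicates it was found for 2 (4.18%). Each of these counts above 0 includes the Lmo2 end. With listed starts alone, 2 of 8 members had one in an anchor over both medium lists, Runx1 and Lyl1, against 14.9% of the 17274 protein-coding genes with a listed start. Both had one in replicate 1 (4.15%) and Runx1 alone in replicate 2 (12.9%), which is 1 of 8 and near the background. Under the high setting there were 0 in replicate 1 (0.509%) and 1, Runx1, in replicate 2 (6.1%). On loops found in both replicates there was 1, Lyl1 (3.51%), whose start lay in the replicate 1 anchor alone. Members spanned numbered 2 (7.52%) and 5 (30.0%) in the medium lists, 0 (0.897%) and 3 (15.2%) in the high lists, and 2 (6.23%) on loops found in both. With 9 genes each member moves a share by a ninth, and no test was made. The median length of the members was 16.6 kb and that of all genes 17.4 kb, and the median number of protein-coding neighbours within 500 kb was 16 for both.

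**Figure D4:**
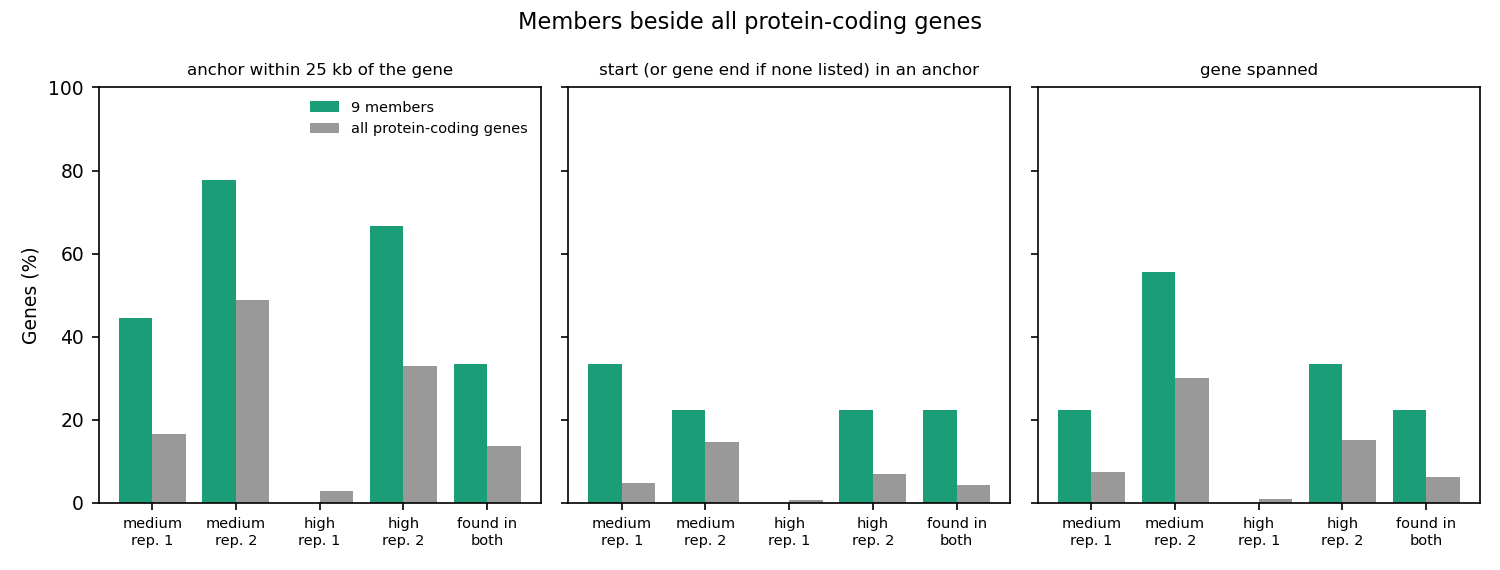
Percent of the 9 members (green) and of all protein-coding genes (grey) with an anchor within 25 kb, with a start (either gene end where none is listed, as for Lmo2) in an anchor, or wholly spanned, for each loop list and for loops found in both replicates. The green bars are higher in each list except the high list of replicate 1, where no member was called, and each member accounts for a ninth of the green scale.

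Loops were called the same when both anchor midpoints lay within 20 kb. Of the 4 member loops of replicate 1, 3 had a partner in replicate 2 (75.0%, 95% exact binomial interval 19.4 to 99.4%), against 80.6% of all replicate 1 loops. Of the 14 member loops of replicate 2, 3 had a partner in replicate 1 (21.4%, 4.66 to 50.8%), against 18.2% of all. Both shares are near those of all loops. The member loops spanned 50 to 450 kb, with a median of 140 kb against 150 kb for all medium-setting loops in either replicate. Of the 14 in replicate 2, 8 were also in its high list, and none of the 4 in replicate 1 was. Each loop carries a whole number n that the files do not define. Among loops of the same replicate and anchor width, the share with a lower n was taken for each member loop. In replicate 2 it was highest for the 100 kb Runx1 loop (n of 89, 82.1%) and the Tal1 loop (39, 79.7%). It was lowest there for the 450 kb Lmo2 loop (36, 13.5%) and the Gata2 loop (43, 24.1%). For the matched loops the shares in replicates 1 and 2 were 87.8 and 25.6% at Lyl1, 78.8 and 76.0% at Lmo2, and 85.6 and 57.7% at Myb. The unmatched Runx1 loop of replicate 1 had 21.6%.

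The other factors of the same families and complexes were described with a list of 23 genes. An anchor lay within 25 kb of 17 of them in the medium lists of both replicates together, against the 49.9% of all genes, and 11 were spanned, against the 30.6%. The 6 without an anchor within 25 kb were Cbfb, the RUNX partner gene, Ldb2, Runx1t1, Gfi1, Tal2 and Rcor1. Of these, Ldb2 was spanned by a loop in replicate 2 and Tal2 by a loop in each replicate. Loops found in both replicates had an anchor within 25 kb of 7, against the 13.7%, and held a start, or a gene end where no start is listed, of 2, against the 4.18%. These were Fli1 and Ssbp2, whose protein binds and stabilises LDB1 and which had a loop of 170 kb in each replicate. Fli1 has no listed start and was counted by its left end. With listed starts alone there was 1 of 20, Ssbp2, against 3.51%, which is near the background. Erg and Fli1 complete the heptad. Fli1 had a loop of 525 kb from its left end, 32400001 to 32424999, to 32925001 to 32949999 on chromosome 9, with identical anchors in both replicates and with Fli1 and Ets1 inside. Replicate 2 listed a further Fli1 loop under both settings, of 690 kb, from 32400001 to 32409999 to 33090001 to 33099999. It also had Fli1 and Ets1 inside. Erg had loops of 500 and 525 kb in replicate 2, in the medium list only, and none in replicate 1. The Erg and Fli1 loops were longer than any loop of the 9 members.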

How the data were processed

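Hi-C ligation products were sequenced from 2 samples of HPC5 cells after cutting with the Arima enzymes, per the labels' protocols. HiC-Pro 2.11.1 and the build mm10 are listed in the submitters' processing notes. Which programs called loops and domains is not given in the sources used here. The authors deposited, per replicate, a medium and a high loop list, named after terms in their titles, and a domain list at 5000 bp. The loop lists give coordinates and values per loop that the files do not define, and no library totals, so depth is unknown and a call has no error of its own. Domain starts were moved to count from 1.

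Genes came from RefSeq GRCm38.p6, without scaffolds, and starts from its promoter table, which holds 8 of the 9 members. For genes it lacks, either gene end stood for the start, and the strand of Lmo2 is general knowledge. Enhancer offsets are literature names written from general knowledge.

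Members, lists, enhancers and motifs were chosen with earlier results of these data known, so counts are descriptions. The set of named genes is the members, genes with an end in the other anchor, Erg, Fli1 and listed factors at loops found in both replicates. The 6 listed factors without an anchor, genes overlapping or enclosed and those at the nearest anchors are named as well, after their values were seen. Python 3.11.15 and SciPy 1.17.1 were used. On simulated data 200 of 200 loop-to-gene relations were recovered. Alternatives were other distances, the high lists, each replicate alone, loops found in both, other matching rules and all annotated genes.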

Additional observations from a re-analysis of the deposited data

How the results depend on the processing

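Depth is unknown, the replicate 2 medium list is 4.49 times as long as that of replicate 1, and with so few genes and loops a change of 1 or 2 moves every share. The members with an anchor near the gene, 7 in all, numbered 3 when the anchor had to overlap the gene and 3 on loops found in both replicates, and 4 to 7 with a replicate left out (4 without replicate 2). The 5 spanned members numbered 3 in the high lists and 2 to 5 with a replicate left out (2 without replicate 2). The 3 member loops of each replicate with a partner numbered 0 in the high lists, where replicate 1 had no member loop. The 5 enhancers within 10 kb of an anchor numbered 3 with the position inside the anchor and 12 within 25 kb. With a replicate left out they numbered 2 to 5 (2 without replicate 2). Over all genes the share of such positions rose from 8.79% inside an anchor to 18.0% within 10 kb. No such share is at hand for the 25 kb limit or for single replicates, so those counts have no background to be read against. The members inside a domain numbered 0 to 2, with 0 without replicate 2, beside 3.98% of all protein-coding genes with both replicates. The share of all protein-coding genes with an anchor near them, 49.9%, was 30.0% at 0 kb, 39.6% at 10 kb, 60.0% at 50 kb, 33.0% in the high lists, 39.3% over all annotated genes and 16.5 to 48.8% with a replicate left out. The members with a start in an anchor, 3 with the downstream end of Lmo2 standing for its start, numbered 2 to 4 under the 6 alternatives. Added after seeing the data were starts from the promoter table alone, which gave 2 members, and enhancers counted from the most downstream start, which gave 6. For the count from the most downstream start no share over all genes is at hand either. No paired analysis was possible because both samples belong to 1 group.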
